A study of Mus musculus with 8 samples.

Results

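The genes described here are 10 members of the S100 family that lie near Npr1 on mouse chromosome 3: S100a1, S100a3, S100a4, S100a5, S100a6, S100a8, S100a9, S100a10, S100a13 and S100a16. They were chosen by symbol, by matching each probe's RefSeq transcript to the gene table. No measured value entered that matching, but the genes were listed with earlier results of these data known. The 10 genes had 13 of the 39429 probes on the array, with S100a1, S100a4 and S100a16 measured by 2 probes each. Each probe was well above background on all 8 arrays and was tested.

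The arrays measured total RNA from the myocardium of untreated male mice, 3 samples labelled NPRA-/- and 5 labelled NPRA+/+, with 1 array per sample. NPRA is the product of Npr1, the receptor through which atrial and B-type natriuretic peptides raise cyclic GMP. The model is a conditional knockout named NprAflox/flox in the labels, and the title of the series calls the deficiency cardiac-specific. The labels do not name the Cre driver, the age of the mice, or whether the NPRA+/+ mice carried floxed alleles or Cre. The design text speaks of m6A modification, whereas the values are those of an expression array in 1 colour. The labels call the samples biological repetitions and name no animals, so a p-value here reflects how far these samples scatter and no more. A whole-tissue RNA sample cannot tell fewer cells of a type apart from less RNA per cell.

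S100 proteins are small calcium-binding proteins of the EF-hand type that mostly work as dimers and bind target proteins when calcium rises. Some act inside the cell: S100A1 binds the ryanodine receptor and the calcium pump SERCA in heart muscle, and S100A10 pairs with annexin A2. Others are released: S100A8 and S100A9 form calprotectin, an abundant protein of neutrophils and monocytes that signals through the receptors TLR4 and RAGE. Most of the mouse family lies in 1 cluster on the chromosome that also carries Npr1.

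In the RefSeq gene order of GRCm38.p6, Ilf2, Snapin and Chtop separate Npr1 from S100a1, which was the fourth protein-coding gene from Npr1 (position 4). S100a13, S100a16, S100a3, S100a4, S100a5 and S100a6 followed at positions 5 to 12, S100a8 at 14 and S100a9 at 15. S100a10 lay apart from the cluster, at position 73. Probe coordinates are left out because the array was designed on another build.

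The promoter sequences of 9 of the 10 genes were found in the RefSeq table of GRCm38.p6, in 13 entries. S100a10 had no entry. The first 3 sequences belong to the genes with a probe whose genotypes did not overlap with the main scaling, which is described below. Each spans 140 bases before and the first 10 bases from the start of the RefSeq gene, read along the gene's own strand, with the letters TATAAA in capitals. S100a8 lies at chr3:90668931-90669080 on the plus strand, S100a9 at chr3:90695712-90695861 on the minus strand and S100a4 at chr3:90603630-90603779 on the plus strand.
S100a8: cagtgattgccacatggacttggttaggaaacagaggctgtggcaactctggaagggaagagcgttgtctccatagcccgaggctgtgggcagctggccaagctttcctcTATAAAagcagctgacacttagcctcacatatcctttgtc
S100a9: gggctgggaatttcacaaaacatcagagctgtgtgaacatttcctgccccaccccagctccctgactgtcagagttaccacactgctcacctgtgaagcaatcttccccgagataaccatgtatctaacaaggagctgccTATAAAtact
S100a4: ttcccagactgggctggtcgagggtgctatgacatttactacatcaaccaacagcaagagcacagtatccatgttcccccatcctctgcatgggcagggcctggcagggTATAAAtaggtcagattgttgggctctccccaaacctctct
S100a1 and S100a13 start head to head, and the 104 bases between their starts are shown because the pair shares them; they lie at chr3:90514331-90514434, printed on the plus strand, along S100a13. It holds none of the motifs searched and so has no capitals.
S100a1-S100a13: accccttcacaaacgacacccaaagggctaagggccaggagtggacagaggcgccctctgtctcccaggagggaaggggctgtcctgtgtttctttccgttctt

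The letters TATAAA, searched on both strands of 250 bases before and 50 bases from each start, occurred in the windows of S100a3, S100a4, S100a8 and S100a9, 1 window each, which is 4 of the 13 windows. Of all 32851 promoter windows of the same length, 13.6% held them. The match began 30 bases before the start in S100a8, 31 in S100a4 and 52 in S100a3. In S100a9 it covered bases 1 to 6 from the start that RefSeq gives. TGANTCA, the AP-1 element, occurred in 1 of the 13 windows, of S100a16, against 7.81% of all windows. CCAAT occurred in 3 of the 13, of S100a3, S100a5 and S100a6, against 37.4% of all windows. The GC box GGGCGG occurred in 3 of the 13, of S100a3, S100a9 and S100a16, against 35.7%. The E-box CANNTG occurred in 11 of the 13 against 72.3%. The cAMP response element TGACGTCA occurred in none of the 13 (0) and in 1.79% of all windows. CCAAT and CANNTG can overlap each other. A match is a description of the letters only.

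Levels are given as log2 of the processed signal relative to the 75th percentile of all spots of the same array, so that 0 stands for a signal at that percentile. Differences are NPRA-/- minus NPRA+/+ on the same log2 scale, from limma fitted on all 35329 probes tested, with their standard errors. A call needed an adjusted p under 0.05 after Benjamini-Hochberg adjustment over all these probes. The median difference of all probes was 0.21, and it was smaller for brighter probes. Over 5 groups of equal size ordered by signal it went from 0.63 in the dimmest to 0.05 in the brightest. Of the 13 S100 probes, 6 lay in the brightest group, 5 in the next, also at 0.05, and 2, of S100a5 and S100a8, in the middle group, at 0.22. A difference relative to the median of all probes is therefore given beside the fitted one where the results turn on it. That median, 0.21, lies above the 0.05 of the 2 brightest groups, so bright S100 probes read lower against it than against their own group.

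The arrays fell on 4 scan days and 6 slides, where arrays with the same scan time were taken as 1 slide. No slide held both genotypes. Only scan day 1 held both: NPRA-/- replicates 2 and 3 on 1 slide and NPRA+/+ replicates 2 and 3 on another, so within that day slide and genotype cannot be told apart. NPRA+/+ replicates 4 and 5 were scanned on day 2, NPRA-/- replicate 1 on day 3 and NPRA+/+ replicate 1 on day 4. The first principal component, with 47.3% of the variance, set the replicates numbered 1 of both genotypes (-101 and -113) apart from the other 6 arrays. Among those 6, NPRA-/- replicates 2 and 3 (-4.68 and 4.67) lay below NPRA+/+ replicates 2 to 5 (33.6 to 69.3). Between 79.5% and 92.6% of probes were well above background on an array. The 12 cardiomyocyte markers, among them Myh6, Actc1 and Tnnt2, were well above background on all 8 arrays.

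The Npr1 probe was dim. It was well above background on 2 of the 3 NPRA-/- and 4 of the 5 NPRA+/+ arrays. The NPRA-/- arrays read -6.42, -5.53 and -5.59 and the NPRA+/+ arrays -4.77, -6.14, -6.55, -6.00 and -5.93, and the genotypes overlapped. The fitted difference was 0.03 ± 0.40 (limma, adjusted p = 0.978). It was -0.60 after quantile normalization and 0.78 within scan day 1. The labels do not say which exons were deleted, so the probe does not check them.

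S100a8 and S100a9 had the highest differences among the 10 genes. Neither passed the threshold. The fitted difference was 2.08-fold for S100a8 and 2.06-fold for S100a9, and for both genes all 3 NPRA-/- arrays read above all 5 NPRA+/+ arrays. Of the 10 genes, these 2 were higher without overlap and none (0) was lower without overlap when each gene was represented by its brightest probe. Of all probes tested, 14.1% were higher without overlap and 1.29% lower.

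S100a8, the smaller subunit of calprotectin, read -2.17, -1.05 and -1.52 on NPRA-/- replicates 1, 2 and 3. It read -2.74, -2.85, -2.84, -2.25 and -2.48 on NPRA+/+ replicates 1 to 5. The NPRA-/- arrays of scan day 1 were the highest, and NPRA-/- replicate 1 lay 0.08 above NPRA+/+ replicate 4, its nearest neighbour. The NPRA-/- mean was -1.58 ± 0.56 (SD, n = 3), against -2.63 ± 0.26 (SD, n = 5). In the fit S100a8 differed by 1.06 ± 0.26 (limma, adjusted p = 0.0935), or 0.85 relative to the median of all probes. After quantile normalization it was 0.85 ± 0.30 (limma, adjusted p = 0.524). On that scale NPRA-/- replicate 1 (7.51) lay below NPRA+/+ replicates 4 (7.75) and 5 (7.60), so the genotypes overlapped.

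S100a9, the other subunit of calprotectin, read -0.86, -0.13 and -0.44 on the NPRA-/- arrays. It read -1.67, -1.56, -1.70, -1.13 and -1.53 on the NPRA+/+ arrays. As for S100a8, NPRA-/- replicate 2 was the highest and NPRA+/+ replicate 4 the highest of its genotype. The NPRA-/- mean was -0.48 ± 0.37 (SD, n = 3), against -1.52 ± 0.23 (SD, n = 5). In the fit S100a9 differed by 1.04 ± 0.20 (limma, adjusted p = 0.0693), or 0.83 relative to the median of all probes. After quantile normalization it was 0.96 ± 0.22 (limma, adjusted p = 0.357). The genotypes did not overlap on that scale either, with 8.95 for NPRA-/- replicate 1 and 8.82 for NPRA+/+ replicate 4. Without NPRA+/+ replicate 1 the difference was 1.00 ± 0.21 and passed the threshold (limma, adjusted p = 0.0323), in a fit that called 11.6% of all probes in either direction.

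**Figure D1:**
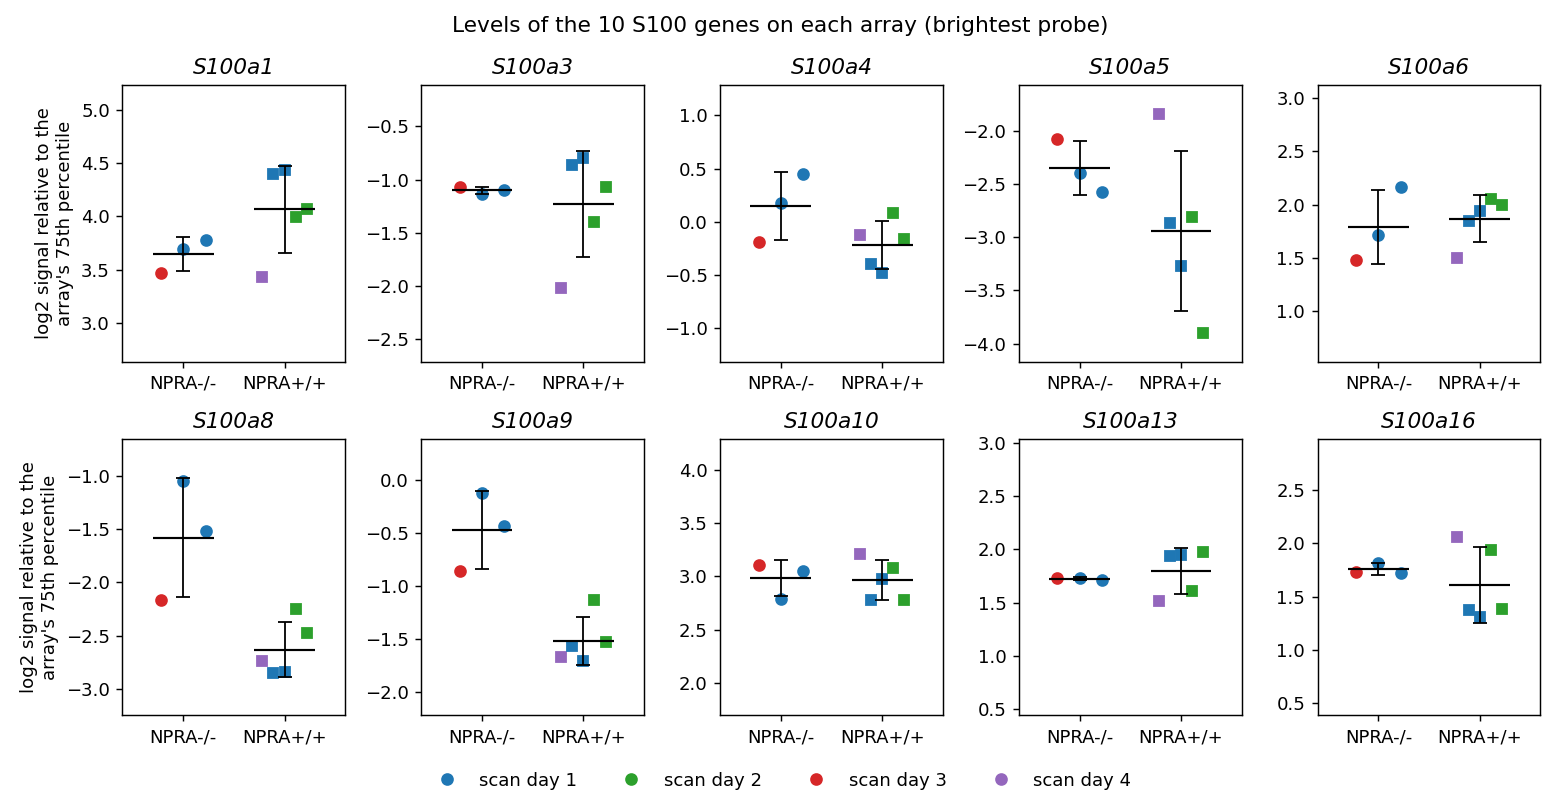
Log2 signal of the brightest probe of each of the 10 S100 genes, relative to the array's 75th percentile, for the 3 NPRA-/- arrays (circles) and the 5 NPRA+/+ arrays (squares), coloured by scan day, with the mean (line) and SD (bar). S100a8 and S100a9 are the 2 genes whose genotypes do not overlap with this scaling, and every panel spans the same number of log2 units.

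The 2 subunits varied together across the arrays. Over the 8 arrays, S100a8 and S100a9 correlated with Pearson's r = 0.98 (exact permutation test, two-sided, p = 0.000149, 0.000298 adjusted over the 2 pairs examined). Spearman's rho was 0.93 (exact permutation test, p = 0.00223, adjusted 0.00446). Without the 2 arrays farthest from the S100a8 median, NPRA-/- replicates 2 and 3, r was 0.91 over the other 6 arrays. Taking each value as its deviation from the mean of its genotype gave r = 0.95, and quantile normalization gave r = 0.96. The arrays share genotype, scan day and scaling, and scan days hold too few arrays for a value of their own. Other genes followed the 2 subunits about as closely, such as Rabl2 with S100a8 (r = 0.976) and Zfhx2os with S100a9 (r = 0.992).

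**Figure D2:**
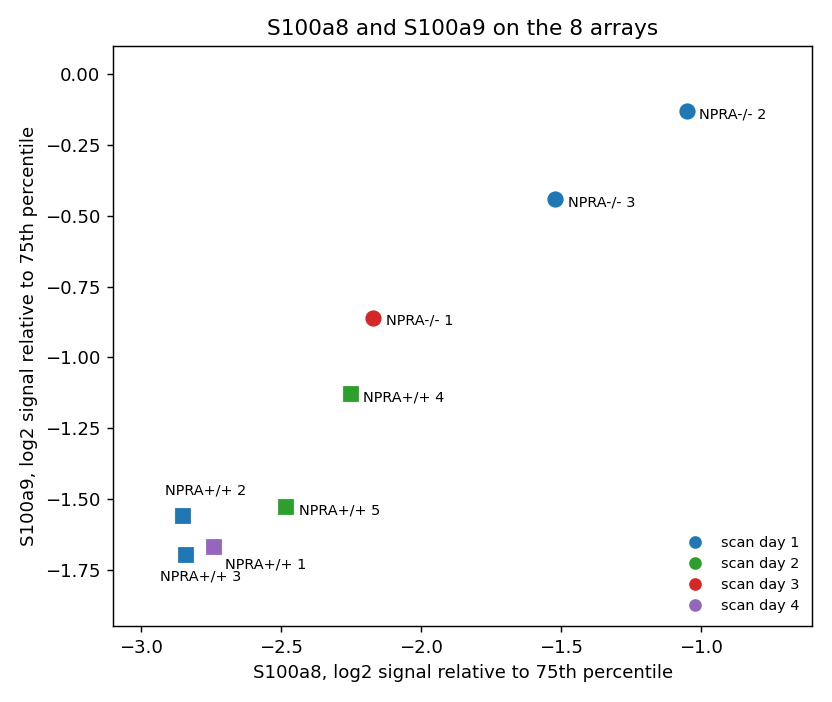
Log2 signal of S100a9 against that of S100a8 on the 8 arrays, each relative to the array's 75th percentile, with circles for NPRA-/-, squares for NPRA+/+ and colours for scan day. The arrays lie along 1 line (r = 0.98), with the 3 NPRA-/- arrays at its upper end and NPRA+/+ replicate 4 nearest to them.

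Markers of neutrophils, which carry calprotectin, were read beside these 2 genes. Of 12 listed markers, 11 were on the array and 10 were tested; 6 were well above background on all 8 arrays, and Ngp, a neutrophil granule protein, was so on none. None (0) of the 10 passed the threshold in either direction (limma), 2 were higher at an unadjusted p under 0.05 and 0 were lower. The background at that level was 18.3% of all probes higher and 1.36% lower. Their median difference was 0.38, or 0.17 relative to all probes, and -0.02 after quantile normalization. Mmp9, a gelatinase, differed by 0.86 ± 0.14 (limma, adjusted p = 0.0593) without overlap and was dim. Mmp8, a collagenase, differed by 0.94 ± 0.40 and was well above background on 2 NPRA-/- arrays and 1 NPRA+/+ array. It met the filter only with the NPRA-/- arrays, so its place among the 2 higher is no support. The 3 brightest markers overlapped between the genotypes: Csf3r differed by 0.13 ± 0.15, Lcn2 by 0.29 ± 0.16 and Elane by 0.64 ± 0.68.

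The summed linear level of the neutrophil markers, in units of each array's 75th percentile, ran from 38.1 to 46.8 on the NPRA-/- arrays and from 32.4 to 44.9 on the NPRA+/+ arrays. Csf3r made up 96.9% of that sum. Without it the sum ran from 1.32 to 1.57 and from 0.815 to 2.07, so the NPRA-/- range lay inside the NPRA+/+ range. Macrophage markers, 11 tested with Csf1r the brightest, had a median difference of 0.16 and 0 calls at an unadjusted p under 0.05. Their sum ran from 23.6 to 25.4 and from 18.5 to 24.9. The part of these cells in the S100a8 and S100a9 values was not tested.

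S100a4, also called fibroblast-specific protein, binds non-muscle myosin and is used as a marker of motile stromal cells. Its brighter probe read -0.19, 0.18 and 0.45 on the NPRA-/- arrays and -0.12, -0.40, -0.48, 0.08 and -0.16 on the NPRA+/+ arrays. The 2 NPRA-/- arrays of scan day 1 were the highest, and NPRA-/- replicate 1 lay among the NPRA+/+ arrays. NPRA-/- averaged 0.14 ± 0.32 (SD, n = 3) and NPRA+/+ -0.22 ± 0.23 (SD, n = 5), with a fitted difference of 0.36 ± 0.19 (limma, adjusted p = 0.342), or 0.15 relative to the median of all probes.

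The second S100a4 probe read -0.65, -0.20 and -0.04 on the NPRA-/- arrays and -0.66, -0.95, -1.07, -0.71 and -0.96 on the NPRA+/+ arrays. These did not overlap, but NPRA-/- replicate 1 and NPRA+/+ replicate 1 differed by only 0.01. After quantile normalization the genotypes overlapped, with 9.17 for NPRA-/- replicate 1 and 9.23 for NPRA+/+ replicate 4. By this probe the difference was 0.58 ± 0.18 (limma, adjusted p = 0.137), or 0.37 relative to the median of all probes. Both probes of S100a4 followed each other over the 8 arrays, with r = 0.92 as a description.

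Fibroblast markers were read beside S100a4. Of the 10, all on the array, none (0) passed the threshold in either direction (limma). At an unadjusted p under 0.05, 2 were higher, against 18.3% of all probes. The median difference was 0.22, or 0.01 relative to all probes. Dcn, the brightest, differed by 0.41 ± 0.16 with overlap, Col1a1 by 0.33 ± 0.14 without overlap and Col3a1 by 0.22 ± 0.14 with overlap. Pdgfra differed the other way by -0.23 ± 0.22, and Lum, Tcf21 and Pdgfrb lay at -0.03, -0.03 and -0.02. The summed level of the 10 markers ran from 113 to 144 on the NPRA-/- arrays and from 99.7 to 104 on the NPRA+/+ arrays. Dcn made up 45.6% of that sum, and without it the ranges overlapped (57.1 to 80.6 and 52.1 to 61.1). The part of fibroblast RNA in the S100a4 value was not tested.

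S100a1 is the S100 protein of heart muscle. It had the lowest difference of the 10 genes, and it did not pass the threshold. Its brighter probe read 3.47, 3.69 and 3.78 on the NPRA-/- arrays and 3.43, 4.40, 4.44, 3.99 and 4.07 on the NPRA+/+ arrays. All 3 NPRA-/- arrays lay below NPRA+/+ replicates 2 to 5, whereas NPRA+/+ replicate 1 was the lowest of all 8. NPRA-/- averaged 3.65 ± 0.16 (SD, n = 3) and NPRA+/+ 4.06 ± 0.40 (SD, n = 5), with a fitted difference of -0.42 ± 0.24 (limma, adjusted p = 0.375), or -0.62 relative to the median of all probes.

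The second S100a1 probe read 2.88, 2.46 and 2.42 on the NPRA-/- arrays and 3.00, 2.92, 2.82, 2.48 and 2.99 on the NPRA+/+ arrays. Here NPRA-/- replicates 2 and 3 were the lowest and NPRA-/- replicate 1 lay among the NPRA+/+ arrays. The fitted difference was -0.25 ± 0.18 (limma, adjusted p = 0.475). The probes had the same sign but hardly followed each other over the 8 arrays (r = 0.09, as a description).

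S100a1 acts on the calcium cycle of the cardiomyocyte, and 16 of 17 listed genes of that cycle were measured. None (0) passed the threshold in either direction (limma), with 1 higher and 1 lower before adjustment (p under 0.05, against 18.3% and 1.36% of all probes) and a median difference of 0.21. Gja1, the gap junction protein connexin 43 of ventricular muscle, differed by -0.44 ± 0.19 and Cacna1c, the L-type calcium channel, by -0.38 ± 0.20. Ryr1, the ryanodine receptor of skeletal muscle, differed by 1.11 ± 0.43 and was well above background on 4 of the 5 NPRA+/+ arrays. These 3 had the smallest p in the list, and the genotypes overlapped in each. The direct targets Ryr2 and Atp2a2, which encodes SERCA, differed by 0.24 ± 0.31 and 0.77 ± 0.62, and Pln, the inhibitor of that pump, by 0.75 ± 0.49.

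S100a13, which takes part in the release of FGF1, starts 104 bases from S100a1 on the opposite strand. It read 1.73, 1.73 and 1.71 on the NPRA-/- arrays and 1.51, 1.94, 1.95, 1.61 and 1.97 on the NPRA+/+ arrays. The NPRA-/- arrays were almost identical and lay in the middle of the NPRA+/+ range. S100a13 differed by -0.07 ± 0.15 (limma, adjusted p = 0.836). Over the 8 arrays S100a13 was the member with the highest r with S100a1, 0.785 as a description. That value is for the brighter S100a1 probe, which the second hardly followed (r = 0.09).

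S100a10, the annexin A2 partner, and S100a6, known as calcyclin, had differences close to 0. S100a10 read 3.11, 2.79 and 3.05 on the NPRA-/- arrays and 3.21, 2.78, 2.98, 3.08 and 2.78 on the NPRA+/+ arrays, with a fitted difference of 0.02 ± 0.15 (limma, adjusted p = 0.968). S100a6 read 1.48, 1.72 and 2.17 on the NPRA-/- arrays and 1.50, 1.85, 1.94, 2.05 and 2.00 on the NPRA+/+ arrays, with a fitted difference of -0.08 ± 0.20 (limma, adjusted p = 0.871). In S100a6 the replicates numbered 1 of both genotypes were the lowest 2 arrays, and the genotypes overlapped in both genes. The sign of S100a10 changed in 9 of 22 alternatives and that of S100a6 in 5.

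For S100a10 and its partner no correlation was detected. Over the 8 arrays, S100a10 and Anxa2 had r = -0.23 (exact permutation test, two-sided, p = 0.592, adjusted 0.592) and rho = -0.31 (exact permutation test, p = 0.462, adjusted 0.462). Without the 2 arrays farthest from the S100a10 median, r was -0.51 over 6 arrays. Anxa2 itself differed by 0.18 ± 0.16 (limma, adjusted p = 0.581).

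S100a16, a widely expressed member, was measured by 2 probes that did not follow each other (r = -0.42, as a description). The first read 1.73, 1.82 and 1.72 on the NPRA-/- arrays and 2.06, 1.37, 1.31, 1.94 and 1.38 on the NPRA+/+ arrays. The second read 0.77, 0.29 and 0.45 on the NPRA-/- arrays and -0.05, 0.34, 0.48, 0.29 and 0.34 on the NPRA+/+ arrays. NPRA+/+ replicate 1 was thus the highest of all 8 arrays by the first probe and the lowest by the second. The fitted differences were 0.14 ± 0.21 and 0.22 ± 0.17 (limma, adjusted p = 0.759 and 0.517), and that of the first was -0.13 with scaling to the median; the sign of the second changed in 3 of 22 alternatives.

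S100a3 and S100a5 are known from hair follicles and olfactory neurons rather than from the heart. S100a3 read -1.07, -1.13 and -1.10 on the NPRA-/- arrays and -2.02, -0.86, -0.80, -1.40 and -1.07 on the NPRA+/+ arrays. S100a5 read -2.08, -2.40 and -2.58 on the NPRA-/- arrays and -1.84, -2.87, -3.27, -2.81 and -3.90 on the NPRA+/+ arrays. NPRA+/+ replicate 1 was the lowest of all arrays for S100a3 and the highest for S100a5, and the genotypes overlapped in both. The fitted differences were 0.13 ± 0.28 and 0.59 ± 0.41 (limma, adjusted p = 0.847 and 0.467). The sign of S100a3 changed in 5 of 22 alternatives, scan day 1 among them (-0.29 ± 0.09).

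As a set, the 10 genes were not called. None (0) passed the threshold in either direction (limma), while 0.320% of all probes were called higher and 0.0283% lower. Before adjustment, 2 were higher at p under 0.05 (S100a8 and S100a9) and 0 lower, while 18.3% of all probes were higher and 1.36% lower at that level. The fitted difference was positive in 7 of the 10, as it was in 26485 of the 35329 probes. Their median difference was 0.14, against 0.21 for all probes and 0.16 with 1 probe per gene. In each of the 2 brightest signal groups the median of all probes was 0.05. These groups held all S100 probes except those of S100a5 and S100a8. Relative to the median of its own signal group, S100a9 differed by 0.99, S100a8 by 0.83, S100a4 by 0.31 and S100a1 by -0.46 (brightest probes). The calls among all probes numbered 113 higher and 10 lower. A block for the repetition number left 0 and 0, and a block for the source name number left 1 and 21. No S100 gene was called with either block.

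Within scan day 1, 4 of the 10 genes passed the threshold. That fit, on 2 arrays against 2, called 15.6% of all probes higher and 1.37% lower. S100a8 rose by 1.56 ± 0.19 (limma, adjusted p = 0.0246), S100a9 by 1.34 ± 0.14 (adjusted p = 0.0238) and S100a4 by 0.75 ± 0.13 (adjusted p = 0.0357; second probe 0.89 ± 0.11, adjusted p = 0.0252). S100a1 fell by 0.68 on the log2 scale (limma, adjusted p = 0.0269), and its second probe had a difference of -0.43 ± 0.09 (adjusted p = 0.0519). The other 6 genes did not pass, with differences from -0.29 for S100a3 to 0.58 for S100a5.

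The replicates numbered 1 were scanned on days of their own and did not give the same differences as scan day 1. NPRA-/- replicate 1 lay 0.80 above NPRA+/+ replicate 1 for S100a9 and 0.57 above it for S100a8. For S100a4 the same pair differed by -0.07 and 0.01 with its 2 probes, and for S100a1 by 0.03 and -0.12. For S100a3 it differed by 0.95 and for the second S100a16 probe by 0.81, where scan day 1 gave -0.29 and -0.04. These are single arrays, and no test was made of them. The same 4 genes passed where arrays were weighted by their fit to the rest, in a fit that called 24.9% of all probes higher and 2.12% lower.

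**Figure D3:**
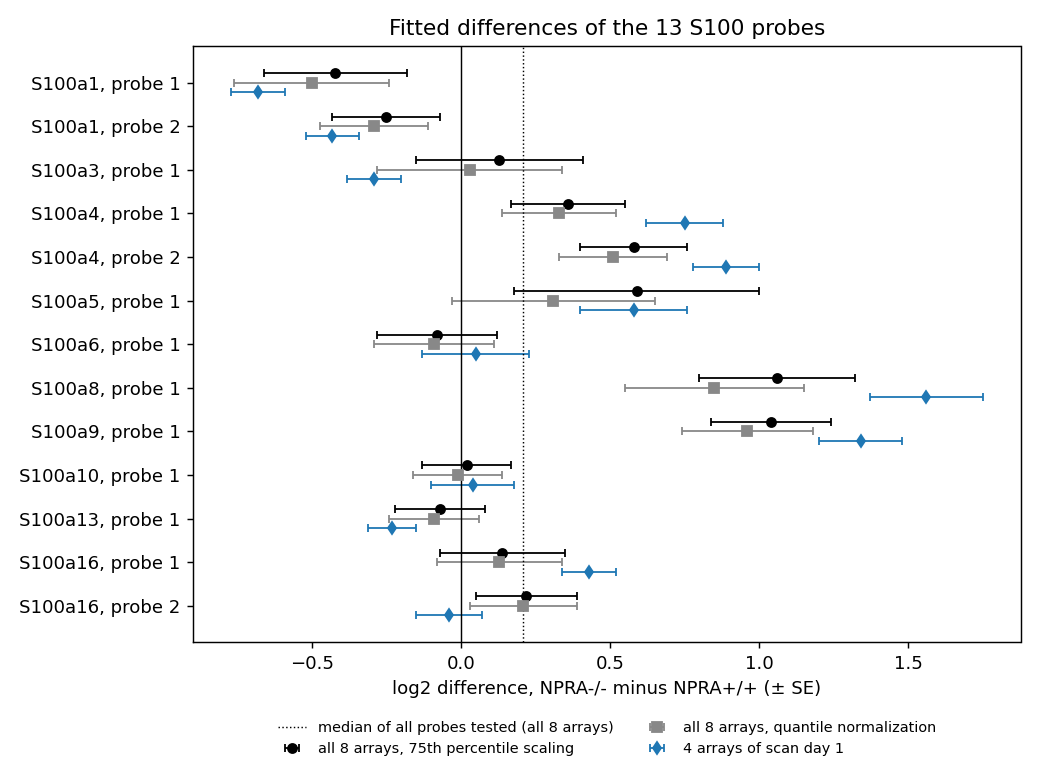
Fitted log2 difference, NPRA-/- minus NPRA+/+, with its standard error, for each of the 13 S100 probes from all 8 arrays (black circles), from all 8 after quantile normalization (grey squares) and from the 4 arrays of scan day 1 (blue diamonds). The dotted line is the median of all probes tested, 0.21; S100a8 and S100a9 lie to its right in each of the 3 fits, and both S100a1 probes lie left of 0.

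Along the chromosome the differences did not run one way. Among the 9 described genes from S100a1 to S100a9 the fitted values ranged from -0.42 to 1.06, with S100a6 (-0.08) between S100a5 (0.59) and S100a8. The 13 genes listed as neighbours, Npr1 among them, had a median difference of 0.03, and none (0) passed the threshold in either direction (limma). Before adjustment, 1 was higher and 0 lower (p under 0.05, against 18.3% and 1.36% of all probes). That 1 was Rab13, a small GTPase of tight junctions, at 0.59 ± 0.14 (limma, adjusted p = 0.0874) without overlap. The next smallest p belonged to Slc27a3, a fatty acid transport protein, at 0.28 ± 0.28 and Creb3l4, a bZIP transcription factor, at 0.29 ± 0.31, both with overlap. Ilf2, Snapin and Chtop, which lie between Npr1 and S100a1, differed by 0.18 ± 0.20, 0.08 ± 0.13 and -0.18 ± 0.25.

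**Figure D4:**
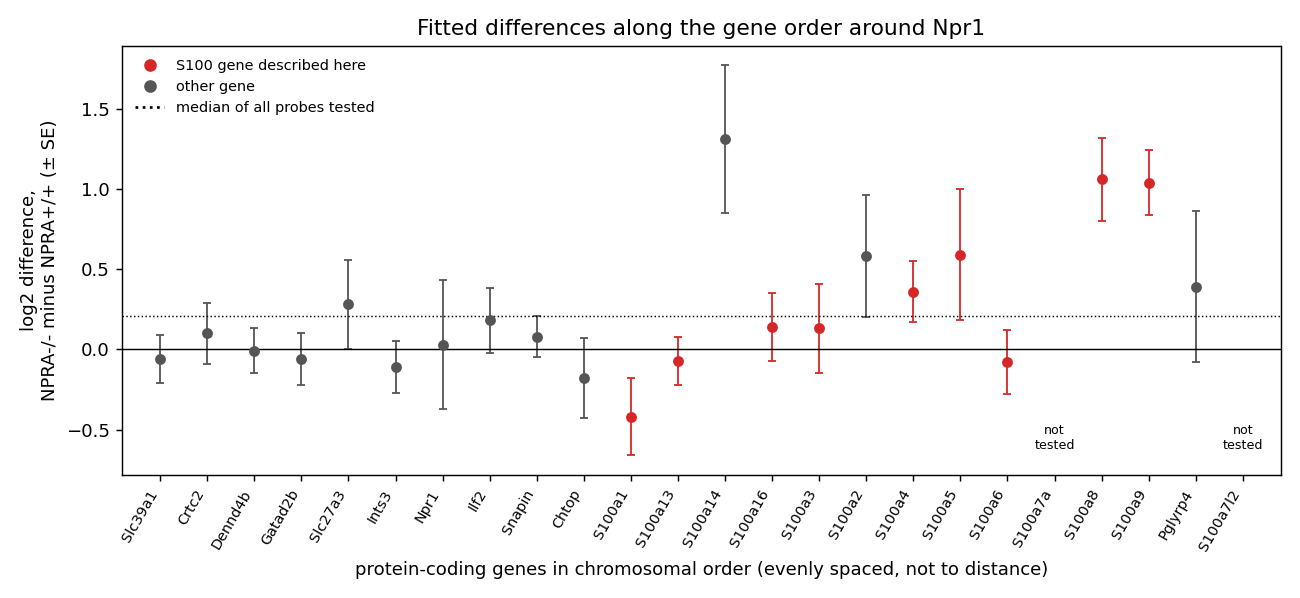
Fitted log2 difference, NPRA-/- minus NPRA+/+, with its standard error, for the protein-coding genes from 6 before to 17 after Npr1 in RefSeq order (evenly spaced, brightest probe of each), with the described S100 genes in red. Among the genes plotted S100a1 is the lowest at -0.42, S100a14, S100a8 and S100a9 are the highest, and the dotted line marks the median of all probes, 0.21.

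Other S100 genes of the array were read for comparison. Of 9, 7 were tested, and none (0) passed the threshold in either direction (limma). Before adjustment, 2 were higher and 1 lower (p under 0.05, against 18.3% and 1.36% of all probes). S100z, which lies outside the cluster, had the widest difference of the family. It read -3.01, -1.52 and -1.76 on the NPRA-/- arrays and -0.07, 0.00, 0.22, 0.86 and 1.46 on the NPRA+/+ arrays. The genotypes did not overlap, NPRA-/- being lower, and the difference was -2.59 ± 0.45 (limma, adjusted p = 0.0597). It stayed between -2.92 and -1.76 over the alternatives.

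S100a14, between S100a13 and S100a16 in the cluster, was dim. It read -3.90, -5.03 and -5.03 on the NPRA-/- arrays and -7.26, -5.53, -5.77, -5.80 and -5.46 on the NPRA+/+ arrays, where replicate 1 was not well above background. The difference was 1.31 ± 0.46 (limma, adjusted p = 0.17) without overlap, and it was 0.62 within scan day 1. S100pbp, which encodes a protein that binds S100P and is no S100 protein itself, differed by 0.65 ± 0.17 (limma, adjusted p = 0.104) without overlap by 1 probe and by 0.21 ± 0.19 by the other. S100a2 differed by 0.58 ± 0.38, S100a11 by -0.24 ± 0.19 and S100b, a glial member, by 0.09 ± 0.25. S100g, a vitamin D-dependent calcium-binding protein, differed by 0.31 ± 0.30 and 0.25 ± 0.58 with its 2 probes. S100a7a and S100a7l2 were each well above background on 1 array and were not tested.

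Receptors and outside partners of S100 proteins were described next. Of 13 tested, none (0) passed the threshold in either direction (limma), 4 were higher and 0 lower before adjustment (p under 0.05, against 18.3% and 1.36% of all probes), and the median difference was 0.21, equal to that of all probes. Cd69, a lymphocyte activation antigen that binds S100A8 with S100A9, differed by 0.51 ± 0.17, Ager, the receptor RAGE, by 0.49 ± 0.18, and Cd33, a myeloid lectin, by 0.30 ± 0.12. Those 3 had the smallest p in the list, and only Cd33 among them was without overlap. Tlr4, the other main receptor of calprotectin, differed by 0.21 ± 0.12 (limma, adjusted p = 0.399).

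Of the intracellular targets of S100 proteins, 26 were tested. None (0) passed the threshold in either direction (limma), 3 were higher and 0 lower before adjustment (p under 0.05, against 18.3% and 1.36% of all probes), and the median difference was 0.11. Syt1, a synaptic calcium sensor that forms a release complex with FGF1 and S100A13, was well above background on 3 of 3 NPRA-/- arrays and on 0 of 5 NPRA+/+ arrays. Its means were -5.63 and -7.49, and taking a dim array at the lowest signal well above background gives a level at least 1.58-fold higher in NPRA-/-. It met the filter only through the NPRA-/- arrays, so its place among the 3 higher is no support and no test of it is given. Htr1b, a serotonin receptor, was well above background on 2 NPRA-/- arrays and 1 NPRA+/+ array and differed by 1.38 ± 0.42. It met the filter only with the NPRA-/- arrays, so its place among the 3 higher is no support either. Anxa1, the annexin that S100A11 binds, differed by 0.30 ± 0.13 (limma, adjusted p = 0.242) without overlap.

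The epidermal differentiation complex, a run of skin genes into which the S100 cluster opens, was also read. Of 21 genes tested, none (0) passed the threshold in either direction (limma), with 5 higher and 0 lower before adjustment (p under 0.05, against 18.3% and 1.36% of all probes) and a median difference of 0.27, or -0.17 after quantile normalization. Tchhl1, a fused S100-type protein, differed by 0.62 ± 0.15 (limma, adjusted p = 0.0865) without overlap, Sprr1b by 1.15 ± 0.30 and Hrnr by 0.60 ± 0.23. The list holds only part of the complex. Genes outside it were also higher without overlap, such as Lce1f at 0.89 ± 0.19 (limma, adjusted p = 0.0754). Others outside it overlapped, such as Lce1c at 0.11 ± 0.36. Keratinocyte markers, 9 tested with Lor the brightest, had 0 calls, 3 higher at an unadjusted p under 0.05 and a median difference of 0.40, and their summed level overlapped between the genotypes (6.62 to 9.58 and 4.94 to 8.90).

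Markers of other cell types were read as well. Among the mesothelial markers 1 passed the threshold: Msln, which encodes mesothelin, rose by 2.48 ± 0.36 in NPRA-/- (limma, adjusted p = 0.0498). That call was lost with the repetition number as a block and after quantile normalization, where no probe at all was called (0). The brightest marker, Wt1, differed by 0.23 ± 0.18. Upk3b, Lrrn4 and Krt19 cleared the background on 3 of 3 NPRA-/- arrays but on 1 or 2 of the NPRA+/+ arrays, so no median is given. The summed level of the list ran from 1.27 to 1.85 on the NPRA-/- arrays and from 0.701 to 1.04 on the NPRA+/+ arrays. The part of mesothelial RNA in any S100 value was not tested. Cardiomyocyte markers had a median difference of 0.63 with 0 calls, also 0 at an unadjusted p under 0.05 (limma). Their summed level ran from 935 to 2420 and from 496 to 1960. No marker passed the threshold in the lists of endothelial cells, smooth muscle, lymphocytes, erythroid cells, adipocytes and Schwann cells (0 in each, limma). Between 0 and 4 of each list were higher at an unadjusted p under 0.05, against 18.3% of all probes.

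The 10 genes did not vary as 1 group. Of 45 pairs of members, 3 had r above 0.8 over the 8 arrays, 21 had r below 0, and the median r was 0.07. The lowest were S100a16 with S100a13 (-0.99) and with S100a3 (-0.83), by the brighter S100a16 probe, which its second probe did not follow. All these are descriptions over arrays that share genotype, scan day and scaling. Correlations were taken over 18844 tested genes, and clone names and predicted genes were passed over in naming the nearest. The genes so named as most like S100a8 were S100a9 (r = 0.978), Rabl2 (0.976) and Mtfmt (0.970). Those most like S100a9 were Zfhx2os (0.992), Zbtb8b (0.988) and Klrb1c (0.986). S100a4 was followed most closely by Oxgr1 (0.956), Tafa2 (0.944) and Mybphl (0.940), and among the members by S100a8 (0.826). The nearest to S100a1 were Nr1d2 (0.987), Map1lc3b (0.984) and Mapk15 (0.983), by its brighter probe, which its second probe hardly followed.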

How the data were processed

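The deposited scanner output gives 1 linear intensity for every spot, already corrected for background within its array. It was made with Agilent Feature Extraction (version 11.0.1.1 per the submitters' processing notes). The same deposited files hold flags of 0 or 1 for background, saturation and outliers. The deposited series table holds log2 values whose scale, centring and normalization are not stated. Each of its columns has a median of 7.04 and ranks probes as the array of the same sample does (Spearman at least 0.999), so columns run in the direction of the signal; 56 entries matched no probe.

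Control spots were left out, outlier spots (0.583%) were treated as missing, and spots of a probe were averaged after log2 and subtraction of the array's 75th percentile (775 to 1253). Probes well above background on at least 3 arrays were tested (35329, with 4100 not kept). For a probe with several spots, a share of 0.5 of them had to be so. No spot was saturated (0). Symbols came from the RefSeq gene table of GRCm38.p6 for 27242 probes, and 12187 stayed unnamed. Where a gene had several probes, the brightest stood for it in counts. limma 3.58.1 in R 4.3.3 compared the genotypes (lmFit and eBayes, two-sided), with genotype as the only term. The procedure was tested on simulated data.

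Across probes, how far samples of the same number lay from their genotype mean correlated by 0.63, 0.28 and 0.36 with the repetition numbers in the sample descriptions, and by 0.35, 0.12 and 0.30 with the numbers in the source names, which give 3 NPRA+/+ samples the number 1. The pairing comes from the data, since no label says what a number shares.

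The members, gene lists and tests were chosen with earlier results of these data known. Named genes are the 10 members, Npr1, the other S100 genes, and the 3 smallest p values of each function list or its calls. Up to 3 bright markers of a cell type list and the 3 genes most like S100a8, S100a9, S100a4 and S100a1 are also named. Clone names and predicted genes were passed over in choosing the genes most like a member. Further genes were named after their values were seen: direct partners of a member, and genes or markers picked for their difference, its direction or their detection. Alternatives covered scaling, background correction, filters, scan day, slide, pairing, variance model and single arrays. The microarray's background correction with normexp used the median spot signals, at an offset of 50. The number of arrays limits the precision.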

Additional observations from a re-analysis of the deposited data

Results flagged for a closer look

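Of 24 probes checked in the NPRA+/+ group, those of 2 S100 genes had 1 array far from the other 4, by a test that chance meets in about 1 of 20 groups. For S100a2, NPRA+/+ replicate 1 read -0.88, while the others ran from -2.55 to -2.20. For S100a14, NPRA+/+ replicate 1 read -7.26 and was not well above background, while the others ran from -5.80 to -5.46. The same array lies apart on the first principal component and was scanned on a day of its own.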

How the results depend on the processing

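Over 22 alternatives, the count of S100 genes past the threshold was 0 higher and 0 lower except within scan day 1 alone (3 higher, 1 lower), with array weights (3 higher, 1 lower) and without NPRA+/+ replicate 1 (1 higher, S100a9). Leaving out 1 array in turn gave 0 to 1 higher. The other probe of a gene in place of the brightest changed neither count. The median difference of the S100 genes was -0.14 with scaling to the median, where the median of all probes was -0.07. S100a1, S100a4, S100a5, S100a8, S100a9 and S100a13 kept the sign of their fitted difference in all 22, from 0.64 to 1.56 for S100a8 and from 0.77 to 1.34 for S100a9. The calls among all probes, 113 higher and 10 lower, were 0 and 0 under quantile normalization, scaling to the median, normexp, the deposited series table, scan day as a block, slide as a random block, averaging of samples that share a source name number, and eBayes with trend and robust. They were 183 higher without a filter, 3 and 0 with probes well above background on all arrays, 5494 and 485 within scan day 1, and 8808 and 749 with array weights. In the fits with the replicate number as a block, they were 0 and 0 by repetition number and 1 and 21 by source name number, and the block changed no other call. Leaving out 1 array gave 0 to 3901 higher and 0 to 187 lower, with calls only without NPRA+/+ replicate 1. The cause was not tested.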
